A study of Rattus norvegicus with 12 samples.

Results

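The genes described here encode 9 regulators of transcription linked to cAMP and the CREB protein or to the circadian clock: Creb1, Crem, Atf3, Sik1, Nfil3, Per1, Per2, Bhlhe40 and Dbp. They were taken as every probe set whose single gene symbol in the platform annotation is one of these names, which gave 19 of 31042 non-control probe sets for 9 of 14217 genes. Creb1 has 4 probe sets, Crem 6, Sik1 and Per2 2 each, and the other 5 genes 1 each. Of the 19, 11 passed a filter at the 40th percentile of mean log2 signal and were tested, among 18625 tested probe sets in all, and each of the 9 genes has at least 1 of them. The filter used the mean over all arrays and not the treatment.

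RNA came from cultured anterior pituitary cells of adult female Sprague-Dawley rats, all ovariectomized 2 weeks earlier, with 13 to 15 pituitaries pooled per experiment. Large cells were collected by sedimentation to enrich gonadotropes, which secrete the gonadotropins LH (luteinizing hormone) and FSH, and 40 to 60% of them stained for LH according to the labels, against under 7% of unfractionated cells. All cultures were kept in medium with 0.2 nM estradiol and 10% charcoal-treated fetal bovine serum. On culture day 3, 6 samples received 10 nM gonadotropin-releasing hormone (GnRH) and 6 received vehicle medium, all for 40 min, with 1 Affymetrix rat 230 2.0 array per sample. The study made 3 separate preparations, named enrichment sets I to III, and each contributed 2 vehicle and 2 GnRH samples. The cultures were mixtures, so fewer cells of a type and less RNA per cell cannot be told apart.

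CREB1 is a basic leucine zipper protein that binds the cAMP response element, a short palindrome, and activates transcription once kinases downstream of cAMP, calcium or MAPK signalling phosphorylate it. CREM is its close relative and yields activators as well as repressors, among them ICER, a short repressor made from an internal promoter that CREB itself switches on. SIK1 is a kinase whose gene is a CREB target and which damps CREB by phosphorylating its coactivators, the CRTC proteins. The GnRH receptor couples mainly to Gq and through it to calcium, protein kinase C and MAPK. The period genes Per1 and Per2 encode repressors of the circadian clock, BHLHE40 is a helix-loop-helix repressor that acts at E-boxes, and DBP and NFIL3 are an activator and a repressor that compete for D-boxes.

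Elements through which these factors act were looked for in the RefSeq promoter table of assembly GRCr8, which holds 11 windows for 8 of the 9 genes, each from 250 bases before to 50 after a transcript start. A full cAMP response element (TGACGTCA) occurred in 2 of the 11 windows, both at downstream starts of Crem, and in 1.83% of the table's 33469 windows. The shorter core TGACG, searched on both strands and contained on either strand of each full palindrome, occurred in 7 of the 11 windows and in 21.2% of all windows. The E-box CACGTG occurred at Bhlhe40 alone among the members, against 6.42% of all windows, and a D-box (TTATGTAA or TTACGTAA) at Per2 alone, against 1.01%. A match is a string of letters and was not tested for binding.
The 250 bases before the start are printed here for the windows with a full element, the paired cores of Sik1, the D-box and the E-box, 5′ to 3′ on the gene's strand, with the matched letters in capitals (TGACG reads CGTCA where it lies on the opposite strand).
Crem, start 2 (chr17:58984547-58984796, plus strand): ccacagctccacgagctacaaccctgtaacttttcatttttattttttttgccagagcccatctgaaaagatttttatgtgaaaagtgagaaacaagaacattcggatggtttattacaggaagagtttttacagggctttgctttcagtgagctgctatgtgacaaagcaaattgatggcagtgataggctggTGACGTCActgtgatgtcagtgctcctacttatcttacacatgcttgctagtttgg
Crem, start 3 (chr17:58985240-58985489, plus strand): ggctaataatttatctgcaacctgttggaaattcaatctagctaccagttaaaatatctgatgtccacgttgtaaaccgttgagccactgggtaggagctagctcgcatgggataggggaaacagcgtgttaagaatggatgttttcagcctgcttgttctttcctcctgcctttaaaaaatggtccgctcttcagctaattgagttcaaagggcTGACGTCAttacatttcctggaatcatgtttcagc
Sik1 (chr20:9958647-9958896, minus strand): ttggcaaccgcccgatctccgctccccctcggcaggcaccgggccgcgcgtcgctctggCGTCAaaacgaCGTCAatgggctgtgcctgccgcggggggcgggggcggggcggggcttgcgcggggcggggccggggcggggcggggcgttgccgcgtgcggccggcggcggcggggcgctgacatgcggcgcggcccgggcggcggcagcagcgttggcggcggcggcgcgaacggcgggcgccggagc
Per2 (chr9:99496994-99497243, minus strand): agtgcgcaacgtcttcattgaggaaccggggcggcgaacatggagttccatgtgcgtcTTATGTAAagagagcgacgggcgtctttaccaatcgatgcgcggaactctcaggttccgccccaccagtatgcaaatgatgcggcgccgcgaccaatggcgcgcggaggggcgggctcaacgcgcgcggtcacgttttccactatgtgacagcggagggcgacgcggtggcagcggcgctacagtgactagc
Bhlhe40 (chr4:143174200-143174449, plus strand): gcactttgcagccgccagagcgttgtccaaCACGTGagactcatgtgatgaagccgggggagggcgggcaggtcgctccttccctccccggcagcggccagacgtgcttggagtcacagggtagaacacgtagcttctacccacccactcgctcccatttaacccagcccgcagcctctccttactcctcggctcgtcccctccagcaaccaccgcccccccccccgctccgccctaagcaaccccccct
The full element of Crem start 2 lay from base -56 to -49 and that of start 3 from -35 to -28, with another full element after that start from base 40 to 47. The cores of Sik1 began at -191 and -180. Cores were also found at Creb1 (beginning at -80, -59 and 9), at start 1 of Crem (-241 and -6), at Nfil3 (-9) and at Per2 (39). The windows of Per1 and Dbp and start 2 of Creb1 held none of these strings. The Per1 window surrounds a start at base 54304376, which lies inside the gene, since the gene begins at base 54299002. Start 1 of Crem, at base 58934066, also lies inside its gene, which begins at base 58932011. The 5′ ends of Per1 and Crem were therefore not searched.

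**Figure D1:**
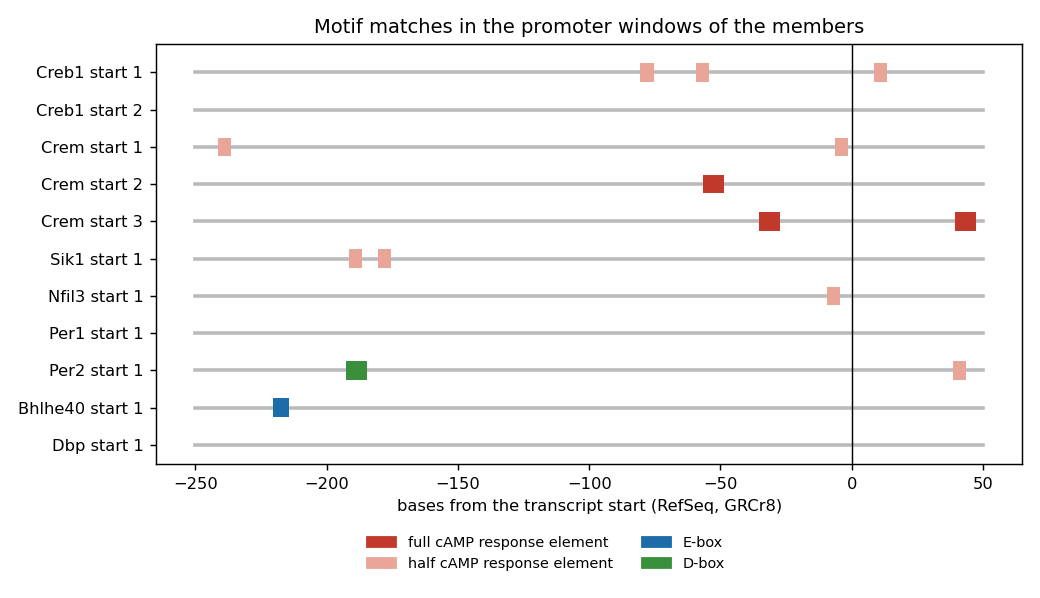
Motif matches in the 11 promoter windows of the member genes, by distance in bases from the transcript start (vertical line at 0), one row per window. Full cAMP response elements (red) appear only at Crem starts 2 and 3, the shorter core (pink) in 5 further windows, the E-box (blue) at Bhlhe40 and the D-box (green) at Per2.

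The arrays differed strongly in how much sample signal they carried relative to spiked-in bacterial controls. With all arrays brought to the same trimmed mean of 500, the geometric mean of the hybridisation controls ran from 2264 to 11705 on 5 arrays (set I and vehicle 5) and from 53482 to 320024 on the other 7. GnRH minus vehicle, this level differed by 0.96 on the log2 scale (exact within-set permutation p = 0.5, two-sided; the smallest p this design allows is 0.00926). Vehicle 3 stood apart: its Spearman correlations with the remaining arrays had a median of 0.376, and the medians of the rest were 0.623 to 0.715. The labelled cell type was checked on its hormone genes. Lhb, the LH beta subunit, had signals from 12563 to 32012 on the 5 arrays with low spike-in signal and from 47207 to 152897 on the other 7. Cga, the shared alpha subunit, ran from 17041 to 66081 on those 5 and from 200789 to 371592 on the other 7. Both genes thus split as the spike-in level did, and the cause was not tested. Of the 6 gonadotrope markers (Lhb, Fshb, Cga, Gnrhr, Nr5a1 and Foxl2), 4 had positive differences and 0 passed the limma test or had an unadjusted p under 0.05. Foxl2 and Nr5a1, which encode transcription factors of gonadotropes, had differences of -0.67 ± 0.33 and -1.15 ± 0.59 (log2, SE), negative in each of the 3 sets. Gnrhr, the GnRH receptor gene, exceeded the 75th percentile of bacterial controls on 7 of the 12 arrays. The controls meant here are 27 probe sets other than the hybridisation controls, and that percentile ran from 39.5 to 406 over the arrays. The summed signal of the 6 gonadotrope markers ran from 32142 to 473414 in vehicle and from 71098 to 494334 in GnRH samples. Genes of other hormone cells were also bright, the summed signal of 4 somatotrope and lactotrope markers (Gh1, Prl, Ghrhr and Pou1f1) running from 36261 to 1169600 in vehicle and from 88147 to 658111 in GnRH samples. All 4 had positive differences (median 0.32, log2), 0 passed the limma test or had an unadjusted p under 0.05, and none was at 0 on any array. Pomc, the corticotrope hormone precursor gene, differed by -1.77 ± 0.50 (limma adjusted p = 0.981), with -0.55, -2.35 and -2.40 in the 3 sets. Pomc exceeded the 75th percentile of bacterial controls on only 7 of the 12 arrays. The value of -1.77 therefore rests in part on signals near background. The other tested corticotrope marker, Tbx19, differed by 0.64 ± 0.51. The part of these cell markers in the results was not tested.

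The main comparison asked whether transcripts of these regulators differed after 40 min of GnRH. No member passed: 0 of the 11 tested probe sets were called higher and 0 lower by limma at an adjusted p under 0.05, against 0.00537% of all tested probe sets called higher (1 of 18625, Fosb) and 0% lower. At an unadjusted p under 0.05, 0 of the 11 were higher and 0 lower, against 1.87% and 1.58% of all tested probe sets. The point estimates of the brightest probe set per gene were positive for 6 of the 9 genes (66.7%), with a median log2 difference of 0.46, against 54.6% and 0.04 over the 10680 genes tested. The largest of them belonged to Nfil3, Crem, Per2, Atf3 and Sik1, whereas Bhlhe40, Dbp, Per1 and Creb1 lay between 0.10 and -0.30. By probe set, 8 of the 11 tested were positive against 53.6% of all. Fold changes are on the scale of signal plus 16 and understate the change of dim probe sets.

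**Figure D2:**
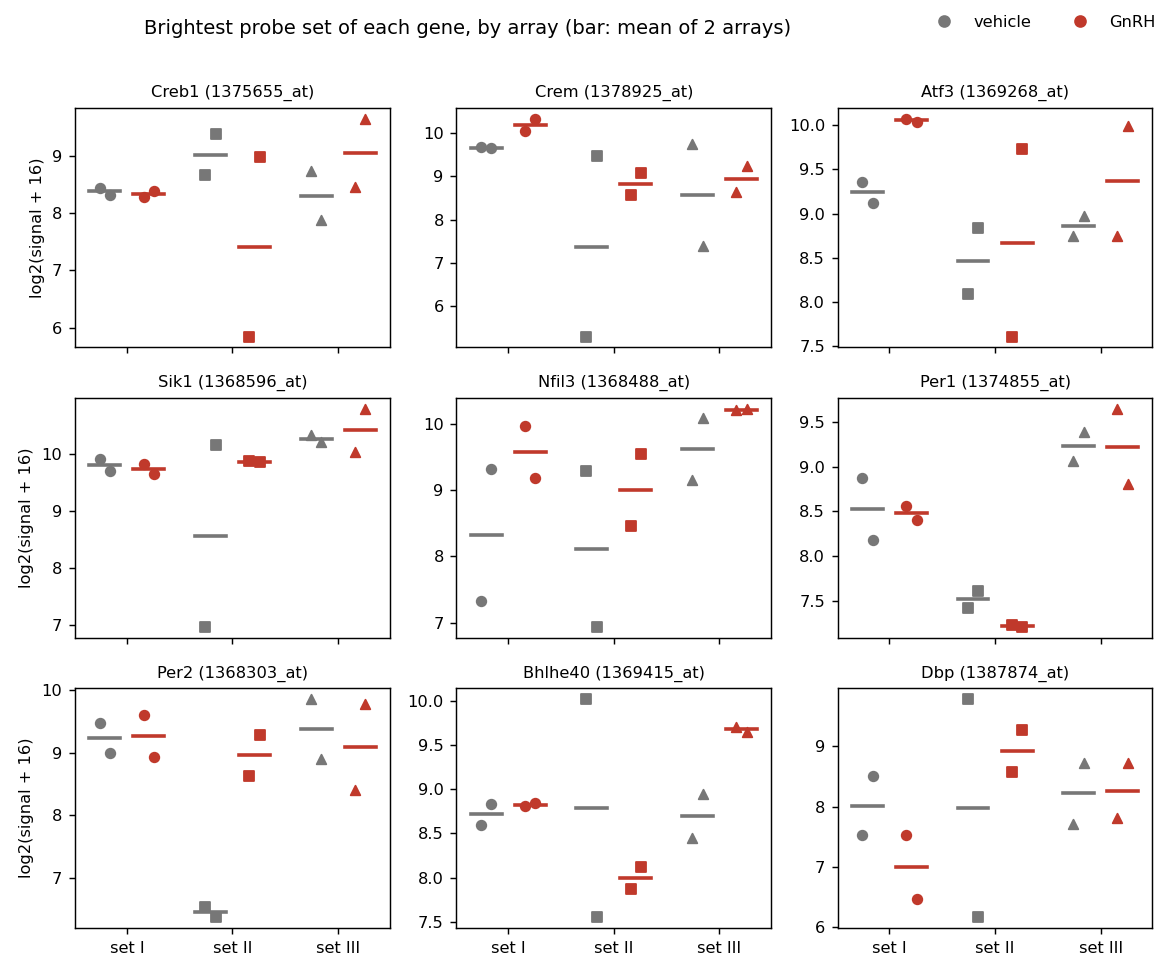
log2(signal + 16) of the brightest probe set of each of the 9 genes on all 12 arrays, grouped by enrichment set, vehicle in grey and GnRH in red, with bars at the mean of 2 arrays. Atf3 is higher in both GnRH arrays of set I, and vehicle 3 is the lowest point of set II for Crem and Sik1 and the highest for Bhlhe40 and Dbp.

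Nfil3, the repressor of D-box genes, had the smallest p of the group. Its signal (1368488_at) was 145, 619, 610, 107, 553 and 1064 in vehicle 1 to 6 and 982, 562, 335, 732, 1160 and 1179 in GnRH 1 to 6. Vehicle 1 and vehicle 4 were low and the groups overlapped, with 27 of 36 GnRH-vehicle pairs higher in GnRH. The vehicle 4 signal lay below the 75th percentile of bacterial controls on that array (242). The log2 difference was 0.91 ± 0.46 (SE over 6 arrays a group), 1.88-fold with a 95% confidence interval of 0.959 to 3.68 (limma adjusted p = 0.981). It ranked 875 of 18625 by p. Sets I to III gave 1.25, 0.88 and 0.60, and in set III both GnRH arrays exceeded both vehicle arrays. With each array left out in turn the difference ran from 0.62 (without vehicle 4) to 1.21 (without vehicle 3).

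Crem, the gene of CREM and ICER, had positive differences in all 6 of its probe sets, from 0.22 to 0.91 on the log2 scale, and 4 of the 6 lay below the filter. The brightest, 1378925_at, gave 799, 796, 23.1, 689, 846 and 151 in vehicle 1 to 6 and 1049, 1280, 362, 522, 382 and 589 in GnRH 1 to 6. In set I the GnRH arrays exceeded both vehicle arrays, and in sets II and III they lay between a bright and a dim vehicle array. Its log2 difference was 0.78 ± 0.59 (SE over 6 arrays a group), 1.72-fold with an interval of 0.724 to 4.08 (limma adjusted p = 0.981), and set by set it was 0.53, 1.44 and 0.37. The value rests in part on vehicle 3: without it the difference was 0.18, and without vehicle 4 it was 1.22. The signals of vehicle 3 and vehicle 6 lay below the 75th percentile of bacterial controls on their arrays (406 and 207). The other tested probe set, 1393550_at, differed by 0.22 ± 0.47 (limma adjusted p = 0.993), with vehicle 3 the brightest array at 1008, and by 0.61 without that array.

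The 4 dimmer Crem probe sets were not tested. Of these, 1387714_at exceeded the 75th percentile of bacterial controls on 8 of the 12 arrays and each of the others on 7. The size of their differences is therefore uncertain. 1369737_at differed by 0.91 (interval -0.52 to 2.34), 1396545_at by 0.84 (-0.41 to 2.10), 1369738_s_at by 0.30 (-1.15 to 1.76) and 1387714_at by 0.28 (-1.13 to 1.68), all log2 differences. With single arrays left out, 1369738_s_at ranged from -0.19 to 0.80 and 1387714_at from -0.17 to 0.79, so the sign of these 2 was not stable. The probe sets of Crem showed no common pattern over the arrays: once set means were removed, the median Pearson correlation over their 15 pairs was 0.13, with a range from -0.75 to 0.68 over 12 arrays. They also differed in how they moved with the spike-in level. The geometric mean signal of 1378925_at was 937 on the 5 arrays with low spike-in signal and 269 on the other 7, whereas that of 1369738_s_at was 37.1 and 291. Which transcripts of Crem each probe set reads, ICER included, is not given in the sources used here.

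Creb1 itself showed no common direction. Its 1 tested probe set, 1375655_at, had vehicle signals from 219 to 647 with a median of 360, and GnRH signals from 41.5 to 787 with a median of 327. The ranges overlapped, with GnRH 3 at 41.5 below and GnRH 6 at 787 above every other array. GnRH 3 and vehicle 3, both of set II, lay below the 75th percentile of bacterial controls on their arrays (198 and 406). The log2 difference was -0.30 ± 0.56 (SE over 6 arrays a group; 0.813-fold, interval 0.359 to 1.84; limma adjusted p = 0.989), and for sets I to III -0.04, -1.60 and 0.75. Without GnRH 3 it was 0.26. Of its 3 dim probe sets, 1369708_a_at differed by -0.95 (interval -2.26 to 0.36), 1377913_at by -0.60 (-1.74 to 0.54) and 1371291_at by 0.50 (-0.73 to 1.73), and these exceeded the 75th percentile of 27 bacterial control probe sets on 4, 3 and 2 of the 12 arrays. They were near background on most arrays, so the size of their differences is uncertain.

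Sik1, the CREB-induced kinase that restrains CREB coactivators, had a pair of probe sets that differed in pattern. The brighter, 1368596_at, gave 951, 813, 109, 1119, 1269 and 1164 in vehicle 1 to 6 and 886, 781, 922, 907, 1030 and 1755 in GnRH 1 to 6. Vehicle 3 was far below the other arrays and GnRH 6 above them. The log2 difference was 0.46 ± 0.44 (SE over 6 arrays a group), 1.37-fold with an interval of 0.722 to 2.61 (limma adjusted p = 0.981). Sets I to III gave -0.08, 1.30 and 0.14, and without vehicle 3 the difference over all sets was -0.05. The dimmer, 1368597_at, gave 121, 24.4, 535, 94.8, 120 and 516 in vehicle and 160, 208, 497, 252, 189 and 910 in GnRH samples. It differed by 0.90 ± 0.59 (1.86-fold, interval 0.781 to 4.45; limma adjusted p = 0.981), with 1.42, 0.59 and 0.69 in the 3 sets. Leaving out single arrays gave 0.61 to 1.23. Its signals in vehicle 2, vehicle 4 and GnRH 5 lay below the 75th percentile of bacterial controls on their arrays (41.9, 242 and 256). The correlation between the pair, set means removed, was -0.22 over 12 arrays.

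Atf3, a stress- and signal-induced relative of CREB that acts mostly as a repressor, was clearest in set I. There the vehicle arrays read 642 and 540 and the GnRH arrays 1064 and 1032 (1369268_at). In set II it was 255 and 440 against 179 and 833, and in set III 414 and 485 against 413 and 1003. Of the 6 GnRH arrays, 4 lay above every vehicle array, and GnRH 3 lay below all of them. The log2 difference over all sets was 0.51 ± 0.40 (SE over 6 arrays a group; 1.43-fold, interval 0.799 to 2.54; limma adjusted p = 0.981), and 0.82, 0.21 and 0.51 set by set. Leaving out single arrays gave 0.28 to 0.81, and the 5 arrays with low spike-in signal alone gave 0.98 (limma adjusted p = 1.00).

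**Figure D3:**
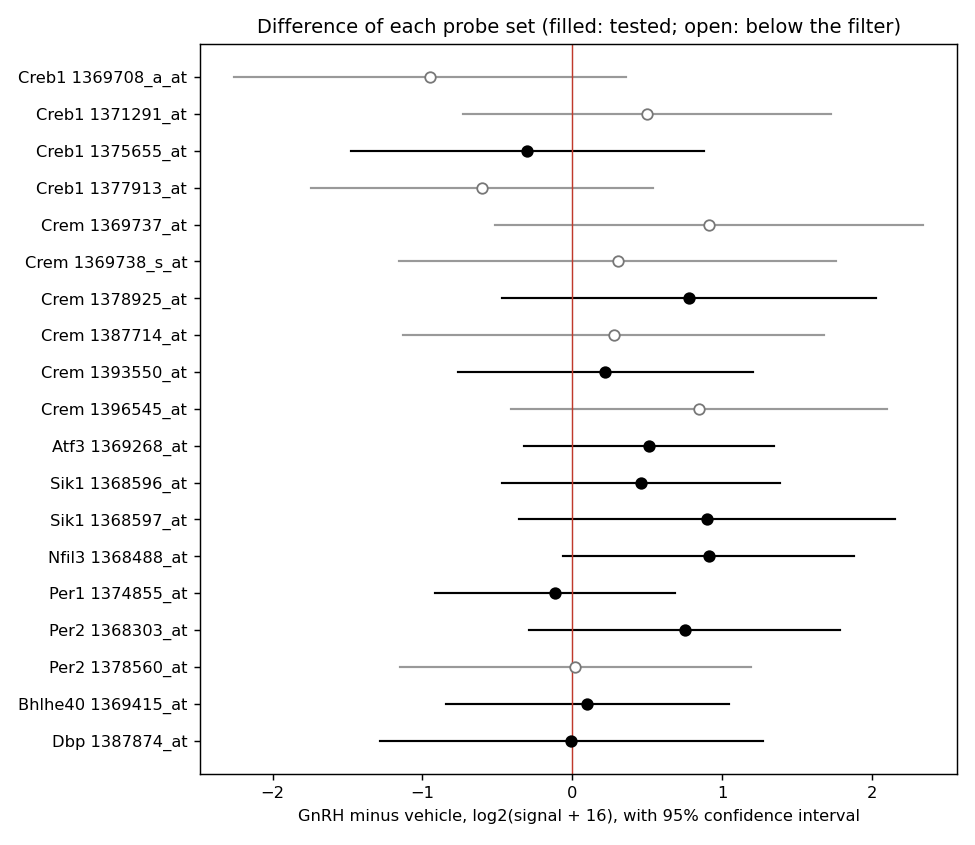
GnRH minus vehicle log2 difference of the 19 probe sets with 95% confidence intervals, filled points for the 11 tested and open points for the 8 below the filter. Every interval includes 0, and all 6 Crem points lie to the right of it.

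Among the clock genes, Per1 and Per2 differed in pattern. Per1 (1374855_at) had vehicle signals from 156 to 654 with a median of 363 and GnRH signals from 132 to 786 with a median of 342. Its log2 difference was -0.11 ± 0.38 (SE over 6 arrays a group; 0.924-fold, interval 0.530 to 1.61; limma adjusted p = 0.999), and for sets I to III -0.04, -0.30 and -0.0016. Its level differed more between preparations than between agents: the mean log2 value was 8.50, 7.37 and 9.23 in sets I, II and III, with SDs of 0.29, 0.19 and 0.37 over 4 arrays each. In set II, however, vehicle 3, vehicle 4 and GnRH 3 lay below the 75th percentile of bacterial controls on their arrays (406, 242 and 198). The level, SD and difference of set II are therefore uncertain.

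Per2 (1368303_at) gave 695, 498, 76.6, 67.2, 913 and 462 in vehicle 1 to 6 and 763, 471, 380, 611, 325 and 869 in GnRH 1 to 6. Both vehicle arrays of set II were far below the other 10, and elsewhere the groups overlapped. The log2 difference was 0.75 ± 0.49 (SE over 6 arrays a group; 1.68-fold, interval 0.820 to 3.45; limma adjusted p = 0.981), made up of 0.03, 2.51 and -0.28 for sets I to III. The moderated F test of whether the response differed between sets gave an unadjusted p of 0.0248 and an adjusted p of 0.917 for this probe set by limma. No member passed that test (0 of 11 against 0% of all tested probe sets), and Per2 was the 1 member with an unadjusted p under 0.05, against 5.36% of all. The signals of vehicle 3 and 4 lay below the 75th percentile of bacterial controls on their arrays (406 and 242), which leaves the size of the set II difference uncertain. The second Per2 probe set, 1378560_at, was below the filter and differed by 0.02, with -0.17, -0.63 and 0.86 in the 3 sets, and its correlation with the first was -0.45 once set means were removed.

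Bhlhe40 (1369415_at) and Dbp (1387874_at), both clock-linked regulators, had point estimates near 0 with wide intervals. Bhlhe40 signals ran from 172 to 1020 with a median of 405 in vehicle and from 218 to 816 with a median of 437 in GnRH samples, with a log2 difference of 0.10 ± 0.45 (SE over 6 arrays a group), 1.07-fold with an interval of 0.557 to 2.06 (limma adjusted p = 0.999). Within sets I, II and III it was 0.11, -0.79 and 0.98, and in set III both GnRH arrays (816 and 787) exceeded both vehicle arrays (334 and 475). Dbp ran from 55.9 to 866 with a median of 271 in vehicle and from 72.4 to 605 with a median of 287 in GnRH samples. Its log2 difference was -0.0065 ± 0.60 (SE; fold interval 0.410 to 2.42; limma adjusted p = 1.00), with -1.02, 0.95 and 0.05 in the 3 sets. In both genes vehicle 3 was the brightest array of all 12 and vehicle 4 the dimmest. Vehicle 4 lay below the 75th percentile of bacterial controls on its array (242) for both genes, and GnRH 5 (256) for Dbp. The size of their set II differences is therefore uncertain. The signs of the differences over all sets changed when single arrays were left out, with ranges of -0.10 to 0.52 for Bhlhe40 and -0.58 to 0.33 for Dbp. On the 5 arrays with low spike-in signal Dbp differed by -0.92 (limma adjusted p = 1.00) and Bhlhe40 by 0.20.

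**Figure D4:**
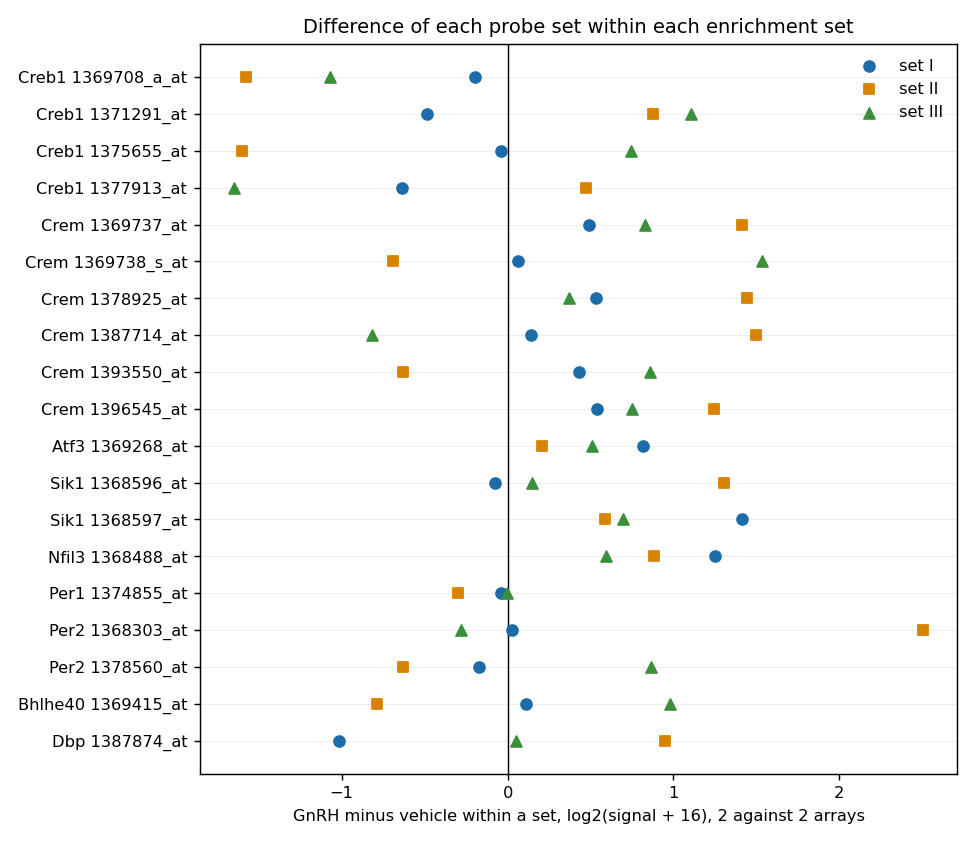
GnRH minus vehicle log2 difference of the 19 probe sets within enrichment sets I (blue circles), II (orange squares) and III (green triangles), 2 arrays against 2. The points run from -1.02 to 1.42 in set I, from -1.60 to 2.51 in set II and from -1.65 to 1.54 in set III, the 2.51 being Per2.

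Read across preparations, 4 of the 11 tested probe sets were higher in GnRH samples in each of the 3 sets (Crem 1378925_at, Atf3, Sik1 1368597_at and Nfil3), against 12.6% of all tested probe sets, and 1 was lower in each (Per1), against 11.4%. By gene this was 3 of 9, against 12.3% of the 10680 genes. All 4 of the higher probe sets lay below the 75th percentile of bacterial controls on at least 1 array. The number of arrays above it was 10 for Crem and Atf3, 9 for Sik1 and 11 for Nfil3, so the size of these differences is uncertain. Both GnRH arrays exceeded both vehicle arrays in 3 of 11 probe sets in set I (Crem 1378925_at, Atf3 and Sik1 1368597_at), against 16.6% of all, in 1 of 11 in set II (Per2), against 20.6%, and in 3 of 11 in set III (Crem 1393550_at, Nfil3 and Bhlhe40), against 15.7%. Both lay below in 0 of 11 in set I, against 15.6%, for set II in 1 (Per1), against 15.9%, and for set III in 0, against 13.9%. Crem was thus counted in sets I and III through different probe sets, and with 11 probe sets nothing is read from how these counts differ from the shares of all. The study's own cutoff combines a 1.5-fold change with concordance over pairwise array comparisons made in GCOS, which were not recomputed. With 50% or more of the 36 GnRH-vehicle pairs at 1.5-fold in their place, Nfil3 (58.3% of pairs) and Sik1 1368597_at (63.9%) counted as higher and 0 of the 11 as lower, against 7.62% and 7.6% of all tested probe sets. Atf3 reached 1.5-fold in 66.7% of pairs but its ratio of geometric means was 1.43.

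Across arrays the members did not vary as one group. With set means removed, 16 of the 36 pairs among the brightest probe sets of the 9 genes correlated positively, with a median Pearson r of -0.05 over 12 arrays. The highest was 0.88 for Sik1 with Crem and the lowest -0.84 for Bhlhe40 with Sik1, and without vehicle 3 these were 0.38 and -0.05. Atf3 with Creb1 gave 0.67, and 0.75 without vehicle 3. In the comparison with 10679 other genes, those most like Nfil3 were Metap1d, Daxx and Parp6 (r = 0.93, 0.89 and 0.87), and those most like Per2 were Actl6a, Sertad4 and Nr3c2 (r = 0.97, 0.95 and 0.94), over the same 12 arrays, which share their scaling.

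The wider set of genes known as CREB targets, which includes 5 of the members, had mostly positive differences, while CREB's own signalling genes and the clock genes were split between both directions. These lists were chosen with earlier results of these data known, so their counts describe the listed genes and test nothing. Of 24 tested CREB targets, 21 were higher, with a median log2 difference of 0.68, against 54.6% and 0.04 of all genes, and 1 passed the test, Fosb. Among the 19 that are not members, 17 were higher with a median of 0.68. Fosb, a FOS-family subunit of AP-1, rose by 2.29 ± 0.32 (log2, SE; limma adjusted p = 0.0411), and the count of called probe sets was 0 in 11 of the 12 fits with 1 array left out and 1 without vehicle 3. The orphan nuclear receptor genes Nr4a3 and Nr4a1 differed by 1.09 ± 0.29 and 1.16 ± 0.41 without passing (limma adjusted p = 0.981 each), and other Nr4a3 probe sets by 1.47 and 0.91. Without vehicle 3 alone, 21 of the 24 CREB targets were higher with a median of 0.41, against 45.5% and -0.04 of all genes in that fit. Without vehicle 3 and vehicle 5, 21 of the 24 were again higher and the median was 0.58, against 46.6% and -0.03 of all genes. Over the 5 arrays with low spike-in signal 19 were, with a median of 0.51, against 48.9% and -0.0081. Over those 5 arrays the members gave 4 of 9 higher and a median of -0.16. Both of these settings were chosen after the data were seen.

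Of 29 tested genes of the CREB pathway (among them coactivators, protein kinase A subunits, adenylyl cyclases, phosphodiesterases and CREB kinases), 17 were higher and 12 lower with a median of 0.04, and by limma 0 passed in either direction, with 1 higher and 0 lower at an unadjusted p under 0.05. Single arrays moved this list: 14 of the 29 were higher with a median of -0.03 without vehicle 3, and 20 with a median of 0.20 without vehicle 5 (all genes 45.5% and -0.04, and 54.9% and 0.06). With the spike-in level as a covariate 20 were higher with a median of 0.25, against 56.1% and 0.07 of all genes. Rps6ka3, which encodes the CREB kinase RSK2, differed by 1.30 ± 0.53 (another probe set gave 0.05), the scaffold gene Akap12 by 0.53 ± 0.29 and the regulatory subunit gene Prkar1a by 0.68 ± 0.39 (others 0.18 and 0.28). Of 19 tested clock genes, 8 were higher and 11 lower with a median of -0.03, and 0 passed by limma or had an unadjusted p under 0.05. Nr1d2, a clock repressor of the nuclear receptor family, differed by 0.88 ± 0.45 (another probe set 0.70), the casein kinase gene Csnk1d by 0.61 ± 0.36 and the cryptochrome gene Cry1 by 0.78 ± 0.48. Other Csnk1d probe sets gave -0.18, -0.06 and -0.33. Of 21 tested bZIP relatives of CREB, 9 were higher and 12 lower with a median of -0.05, and by limma 0 passed, with 0 higher and 1 lower at an unadjusted p under 0.05. That 1 was Cebpd, a C/EBP factor gene, at -1.10 ± 0.44, beside Cebpb at -0.51 ± 0.28 and Creb5 at 0.80 ± 0.45. The genes named in these 3 lists had a limma adjusted p of 0.981. Without vehicle 3, 10 of the 19 clock genes were higher and 9 lower, with a median of 0.03, and 10 of the 21 bZIP relatives were higher, with a median of -0.0087.

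**Figure D5:**
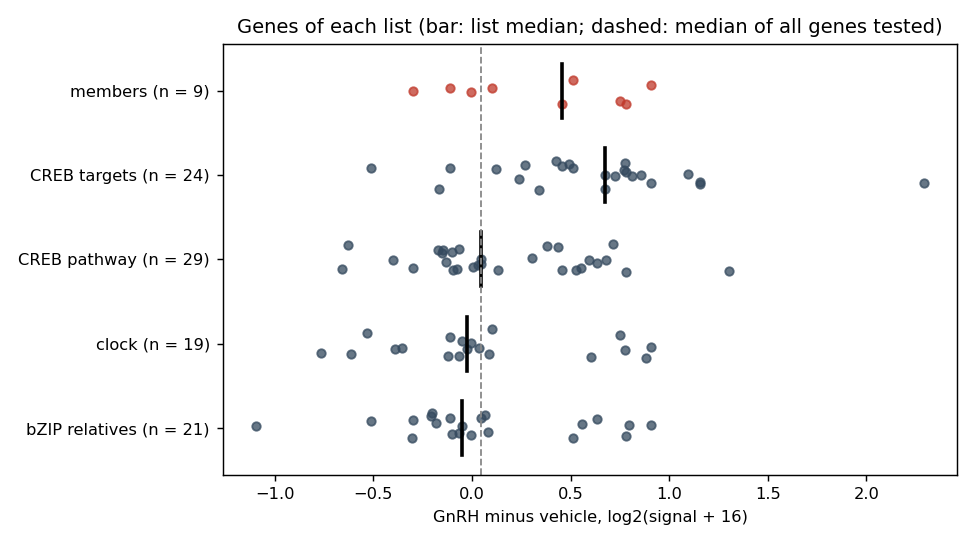
GnRH minus vehicle log2 difference of each tested gene (brightest probe set) for the 9 members in red and 4 lists in dark blue, some genes being in several lists, with bars at list medians and a dashed line at the median of all genes (0.04). The CREB target points lie mostly to the right, with Fosb at 2.29, and the clock and bZIP points fall on both sides of 0.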

How the data were processed

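Gene expression was measured on 12 one-colour oligonucleotide arrays after Affymetrix T7 amplification in 2 rounds, per the labels' protocols, which shortens the product toward the 3′ end. The authors deposited linear intensity values, 1 per probe set, computed with GCOS per the submitters' processing notes and the series' design text (the sources used here do not give its version and settings). Trimmed means of 497 to 499.2 on all arrays show that the authors had scaled the deposited intensities to a common target. Scanner files, which the labels call lost for set I, were not used.

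Signals were scaled so that every array's trimmed mean (2% off each end) was 500, 16 was added and log2 taken. Probe sets at or above the 40th percentile of mean log2 value (7.35) were tested. In the platform annotation 20826 of the 31042 non-control probe sets have 1 gene symbol, 436 several and 9780 none; 20758 of those with 1 symbol matched an Entrez identifier of GRCr8, and 0 symbols changed. limma 3.58.1 under R 4.3.3 fitted agent and enrichment set with an intensity trend and Benjamini-Hochberg adjustment over 18625 probe sets at a threshold of 0.05, and was tested on simulated data. Probe sets below the filter were fitted without a p-value. Lists are described by the brightest tested probe set per gene.

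The members and lists were chosen with earlier results of these data known. Named genes are the members, pathway list genes with an adjusted p under 0.05, the 3 non-members with the smallest p in each pathway list, and the 3 genes most correlated with each of the 2 members with the smallest p. Cell type markers are outside this rule: they are named as a check, some after their values were seen. Alternatives covered the set term, the replicate number as a block, the pseudocount, the filter, quantile normalization, the spike-in level and leaving out arrays. The labels call the samples biological replicates but do not say that those of one preparation came from separate animals, so p-values measure the spread between these samples, which may be technical. The number of arrays limits the precision.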

Additional observations from a re-analysis of the deposited data

Results flagged for a closer look

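In 5 of the 38 groups of 6 arrays examined (19 probe sets, 2 agents), 1 array lay far from the others by Dixon's criterion on the log2 scale. For 6 independent values from a normal distribution, chance flags about 1 in 20 groups. The groups here mix 3 preparations and share the same 12 arrays, so that rate does not hold for them and nothing is read from the count. Sik1 1368596_at was 109 in vehicle 3, against 813 to 1269 in the other vehicle arrays, and 1755 in GnRH 6, against 781 to 1030 in the other GnRH arrays. Creb1 1369708_a_at was 1173 in vehicle 3, against 22.4 to 90.5 in the others. Creb1 1375655_at was 41.5 in GnRH 3, against 295 to 787. Creb1 1377913_at was 240.4 in vehicle 6, against 25.1 to 60.0. Vehicle 3 is thus far below the rest for one member and far above for another.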

How the results depend on the processing

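Under every alternative run, 0 member probe sets passed limma's threshold (lowest adjusted p 0.648). With the spike-in level as a covariate, the differences of Crem 1378925_at and Per2 1368303_at rose to 1.21 and 1.06 (limma adjusted p = 0.648 each). Those of Nfil3 and Sik1 1368597_at fell to 0.79 and 0.64 in the same fit. The count of 1 called probe set over the whole table (Fosb) was 0 without the set term, with pseudocount 1, with quantile normalization, on the 5 low spike-in arrays alone and in each of sets I, II and III alone, and ran from 0 to 1 with each array left out. With the replicate number as a block in place of the set it was 0 as well. Where limma called 0, between 333 (no set term) and 881 (without GnRH 5) probe sets had an unadjusted p under 0.05, with 502 under the replicate block and 643 in the fit as reported. Same-numbered samples correlated at -0.22 to 0.65 in their deviations from the group means and are not taken as pairs. The number of member genes with a positive difference was 5 to 7 with each array left out, and 4 on the 5 arrays. Among tested probe sets, differences that changed sign were those of Dbp (0.0050 with pseudocount 1, and 0.22 without vehicle 3 and 5), Bhlhe40 (-0.19 with the spike-in level as a covariate), Sik1 1368596_at (-0.057 without vehicle 3 and 5, and -0.25 on the 5 arrays) and Per2 1368303_at (-0.18 on the 5 arrays). Among untested ones they were Per2 1378560_at (-0.05 with quantile normalization, -0.27 with the covariate, -0.012 without vehicle 3 and 5, -0.13 on the 5 arrays), Crem 1369738_s_at (-0.36 without vehicle 3 and 5, -0.035 on the 5 arrays), Crem 1387714_at (-0.14 without vehicle 3 and 5) and Creb1 1371291_at (-0.031 on the 5 arrays); the cause was not tested. With each array left out, the ranges of tested probe sets that crossed 0 were -0.58 to 0.26 for Creb1 1375655_at, -0.047 to 0.75 for Sik1 1368596_at, -0.10 to 0.52 for Bhlhe40 and -0.58 to 0.33 for Dbp. Settings with vehicle 3 and 5 left out or with the 5 arrays were chosen after the data were seen, and the latter has no set term.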
